A study of Mus musculus with 20 samples.

Results

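PDGF-FGF-responsive multipotential progenitors (PFMPs) were compared with neural stem cells (NSCs) of the neonatal mouse subventricular zone (SVZ), with the PFMP library of each batch set against the NSC library of the same batch. These were 8 of the 20 libraries of the series, 4 of each population, and 15268 of the 45705 genes in the table were tested because they reached 1 RPKM (reads adjusted for the length of the gene and the size of the library) in 4 or more of these 8. Both populations were sorted by fluorescence from dissociated periventricular tissue of Swiss Webster pups at postnatal day 5. The NSC gate took cells with CD133 and LeX and without CD140a or NG2, and the PFMP gate took cells with CD140a, NG2 and LeX and with little or no CD133. The labels name no treatment, transgene or mutation in either group. All pups of a litter, males and females together, were pooled before the sort, so a library is a pool of animals and a batch is 1 experiment. Each population was defined by its surface antigens alone, and its RNA was amplified from polyA before sequencing. The other 12 libraries held 3 further progenitor populations and entered no comparison here. A library is named by its population and batch, so that PFMP 3 is the PFMP library of batch 3.

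NSCs of the SVZ are astroglia-like cells that touch the ventricle, beside the multiciliated ependymal cells that line it. Ependymal cells carry bundles of motile cilia, each built on an axoneme of microtubules with dynein motors, radial spokes and a central apparatus, and their genes are switched on by GEMC1, MCIDAS, FOXJ1 and the RFX factors. PDGF receptor alpha (CD140a) and NG2 mark oligodendrocyte progenitor cells (OPCs), in which OLIG2, OLIG1, NKX2-2 and SOX10 set the lineage.

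The libraries of batch 3 stood apart from the others in genes of blood and macrophages. The 10 erythroid genes in the table summed to 228458 RPKM in NSC 3 and 251721 in PFMP 3, against 30.7 to 804 in the other 6 libraries, and 13 inflammatory myeloid genes to 44296 and 48703, against 27.4 to 112. The 22 microglia markers summed to 4377 and 4639 there, against 33.8 to 178, and 20 markers of alveolar macrophages and lung epithelium to 2259 and 2494, against 2.94 to 117. Of the 22 microglia markers, 17 stood at 1 RPKM or more in NSC 3 and 15 in PFMP 3, while Tmem119 and Cx3cr1 stayed under 1 RPKM in both. RPKM values summed to between 1029130 (NSC 4) and 1739700 (PFMP 2) per library, and between 21279 (PFMP 3) and 37856 (NSC 4) genes were above 0. The depth of the libraries is unknown, so a value of 0 may lie below detection. In each library only a mixture of cells was measured, so fewer cells of a type and less RNA per cell cannot be told apart in any result given here.

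**Figure D1:**
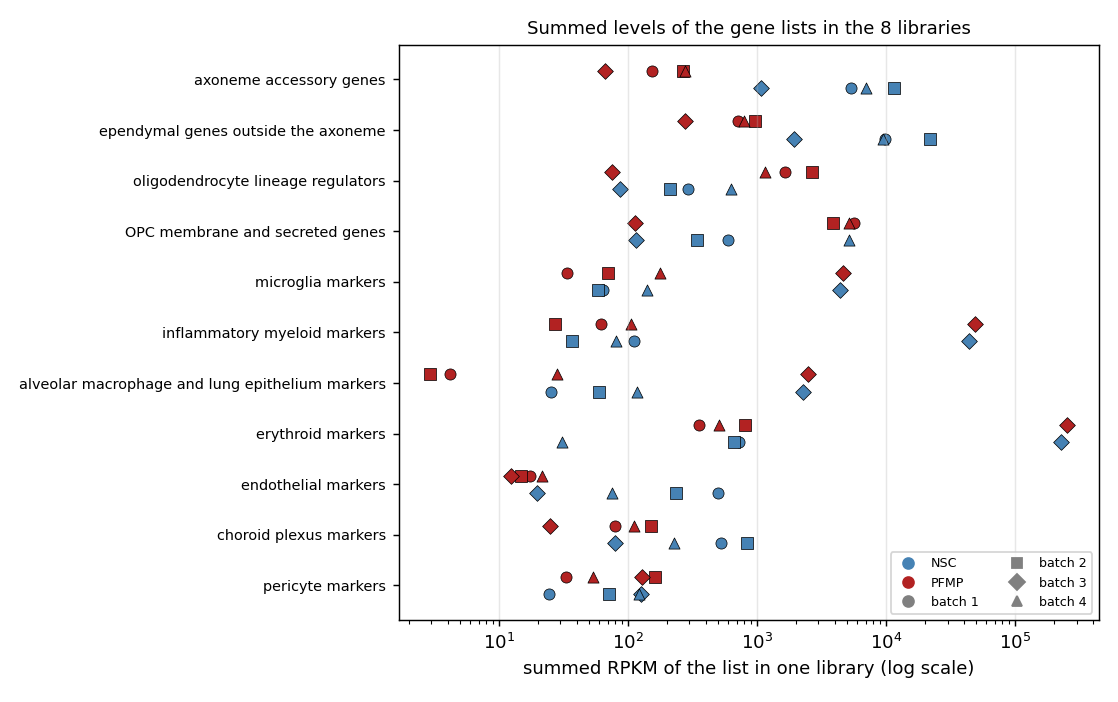
Summed RPKM of 11 gene lists in each of the 8 libraries, on a log axis, with NSC libraries in blue, PFMP libraries in red and the batch given by the symbol. Both libraries of batch 3 (diamonds) lie far to the right for erythroid, inflammatory myeloid, microglia and lung markers, while the axoneme and ependymal lists lie further right in the NSC library of every batch.

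Many more genes were lower in PFMPs than higher. Over batches 1 to 4, with the batch as a block in limma and Benjamini-Hochberg adjustment over the 15268 genes, 24 genes (0.157% of those tested) were higher in PFMPs and 633 (4.15%) lower at an adjusted p under 0.05. Over batches 1, 2 and 4, without the libraries of batch 3, 276 genes (1.81%) were higher and 917 (6.01%) lower. The fits shared 23 of the higher genes (95.8% of the 24 and 8.33% of the 276) and 585 of the lower ones (92.4% of the 633 and 63.8% of the 917). All 633 lower genes had the same sign in the 4 batches, with a median log2 difference of -3.22, and in 438 of them every NSC library lay above every PFMP library, as in 4.38% of all genes tested. Of the 633, 548 were protein coding and 16 are listed at 0 in all 4 PFMP libraries. The 24 higher genes likewise kept their sign in the 4 batches, with a median of 3.35, and 4 of them had no overlap between the groups (0.609% of all genes tested). A call over pairs favours genes that keep their sign, so the shared sign follows in part from the call. A gene under 1 RPKM throughout one population was tested only if all 4 libraries of the other reached 1 RPKM. For such genes the filter fixed both the shared sign and the lack of overlap. All log2 differences here are PFMP minus NSC on the log2(RPKM + 1) scale, which understates the change of low genes. Leaving out batch 1, 2 or 4 from the fit over 4 batches left 7, 3 and 5 higher genes and 284, 252 and 390 lower ones. From the fit over batches 1, 2 and 4, leaving out batch 1 left 142 higher and 620 lower, batch 2 28 and 310, and batch 4 879 and 1639. Nothing in the labels says that batches were more than separate experiments, so the p-values rest on how far the difference within a pair varied between these experiments. In limma that spread is partly drawn from the other genes.

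The genes behind the sort were examined first as a check of the labels. Pdgfra, which encodes CD140a (chromosome 5, 75152292 to 75198215, plus strand), stood at 3.81, 0.731, 1.15 and 3.15 RPKM in NSC 1 to 4 and at 658, 239.8, 3.84 and 96.9 in PFMP 1 to 4. It was higher in the PFMP library of every batch, and PFMP 3 was the lowest PFMP library, close to the highest NSC library. The log2 difference was 4.99 (SE 0.918, adjusted p = 0.0231) over 4 batches and 6.26 (SE 0.605, adjusted p = 0.00260) over batches 1, 2 and 4. Cspg4, which encodes NG2, stood at 23.5, 146, 0.398 and 4.70 RPKM in PFMP 1 to 4 against 0.405, 0.438, 0.197 and 1.12 in NSC 1 to 4, and PFMP 3 lay below NSC 1, 2 and 4. Its difference passed the test over batches 1, 2 and 4 (log2 difference 4.07, adjusted p = 0.0441) and not over all 4 (log2 difference 3.11, adjusted p = 0.118).

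Prom1, which encodes CD133, stood at 84.2, 46.1, 10.01 and 9.56 RPKM in the NSC libraries and at 7.60, 5.12, 0.255 and 18.2 in the PFMP libraries. Its level was lower in the PFMPs of batches 1, 2 and 3, with differences of -3.31, -2.94 and -3.13, but higher in those of batch 4 (0.86). Neither fit called it (adjusted p = 0.139 and 0.237). Fut9, a fucosyltransferase that makes the LeX epitope shared by both gates, had differences of 2.49, 2.12, -0.03 and 1.401 in batches 1 to 4 and was not called. These antigens chose the cells, so their RNA is not evidence of anything beyond the gates.

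Genes of the motile cilium fell in PFMPs, from their regulators to the structure itself. Of 13 multiciliation regulators tested, 8 fell in both fits (4.15% and 6.01% of all genes tested) and none rose, with a median log2 difference of -2.40 over 4 batches and -2.82 over batches 1, 2 and 4, against -0.01 and 0.00 over all genes tested. Foxj1, the forkhead factor of motile cilia (chromosome 11, 116330704 to 116335399, minus strand), stood at 141, 352, 34.3 and 33.1 RPKM in NSC 1 to 4 and at 0.158, 0.0226, 0.00416 and 0.434 in PFMP 1 to 4. Every NSC library lay above every PFMP library, and the difference was -6.27 (SE 0.643, adjusted p = 0.00197). Foxj1 was under 1 RPKM in every PFMP library, so the filter fixed this order, as for any such gene. Myb, a transcription factor that acts early in multiciliated cells, stood at 127, 47.9, 18.4 and 30.5 RPKM in NSCs and 4.12, 4.37, 0.412 and 0.986 in PFMPs, again without overlap (log2 difference -3.90, adjusted p = 0.00185).

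Ccno, a cyclin-like gene needed for centriole amplification, reached 125, 63.5, 12.7 and 10.9 RPKM in the NSC libraries. In the PFMP libraries it stood at 0.173, 0, 2.98 and 0.0344, where PFMP 2 is listed at 0, and the difference was -4.52 (adjusted p = 0.0183). Mcidas, which encodes the coactivator that starts the programme, stood at 11.7, 5.62, 2.22 and 5.19 RPKM in NSCs and at 0.267, 0, 0 and 0.0106 in PFMPs, and fell with a difference of -2.59 (adjusted p = 0.0131). Rfx2 (log2 difference -2.36, adjusted p = 0.0289), Cdc20b (log2 difference -2.91, adjusted p = 0.00839), Ccdc78 (log2 difference -2.95, adjusted p = 0.0264) and Foxn4 (log2 difference -2.40, adjusted p = 0.0207) completed the 8. Mcidas, Rfx2, Cdc20b and Foxn4 were under 1 RPKM in every PFMP library too. The regulators Gmnc and Trp73 were left out by the filter, at 0.0510 and 0.887 RPKM in NSC 3. Rfx3, another RFX factor of ciliated cells, had differences of -0.86, -2.37, -0.80 and -1.82 in batches 1 to 4 and did not pass the test (log2 difference -1.46, adjusted p = 0.113). Without batch 1, 2 or 4, the fit over 4 batches called 2, 2 and 4 of the 13 regulators. With no filter on low values 2 were called over 4 batches and 1 over batches 1, 2 and 4, and among the 7 with a mean RPKM of at least 5 the counts were 3 and 0.

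Of the 28 axonemal dynein genes tested, out of 35 in the table, 21 fell over 4 batches and 24 over batches 1, 2 and 4. Among all genes tested, 4.15% and 6.01% fell, and the medians of the dynein list were -3.53 and -4.20. The intermediate and light chains had the lowest median of the 3 classes (-5.13, 7 of 9 called), followed by the docking and assembly factors (-3.53, 10 of 12) and the heavy chains, the motors themselves (-2.64, 4 of 7). The 13 heavy chains in the table summed to 18.8 to 170 RPKM in the NSC libraries, and the 9 intermediate and light chains to 689 to 4391. The log2(RPKM + 1) scale caps the fall of a low gene, so this order does not rank the classes by fold change. Among the light chains, Dynlrb2 (chromosome 8, 116504974 to 116515915, plus strand) stood at 370.4, 3292, 564 and 1741 RPKM in NSC 1 to 4 and at 0.762, 0.653, 2.81 and 16.02 in PFMP 1 to 4. The groups did not overlap, and the difference was -8.14 (SE 0.658, adjusted p = 0.000990).

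Dnali1, an inner arm light intermediate chain, stood at 169, 343, 32.3 and 49.3 RPKM in NSCs and 0.348, 0, 0 and 1.34 in PFMPs, of which 2 and 3 are listed at 0. Its difference was -6.22 (adjusted p = 0.00216). Dnah9, an outer arm heavy chain, fell from 126, 47.6, 8.22 and 13.1 RPKM in the NSC libraries to 0.756, 0.126, 0 and 0.472 in the PFMP libraries (log2 difference -4.52, adjusted p = 0.00554). Zmynd10, which helps to assemble the arms in the cytoplasm, fell with a difference of -6.05 (adjusted p = 0.00150), and Wdr63, an inner arm intermediate chain, with -6.11 (adjusted p = 0.00147). In both genes the differences of all 4 batches were below -4.

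The other parts of the axoneme moved with the arms. Of 46 accessory genes tested, 38 fell over 4 batches and 41 over batches 1, 2 and 4 (4.15% and 6.01% of all genes). The medians were -3.68 and -4.26. All 8 radial spoke genes fell in both fits (median -4.27), as did 13 of 16 tektins and inner tubule genes (-4.93). Over 4 batches 8 of 10 central apparatus genes (-3.61) and 9 of 12 nexin link and ruler genes (-3.36) fell. Rsph1, a spoke head protein, stood at 682, 1647, 114 and 483 RPKM in NSC 1 to 4 and at 0.821, 0, 1.10 and 6.002 in PFMP 1 to 4. No PFMP library came near an NSC library, and the difference was -7.78 (SE 0.764, adjusted p = 0.00161).

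Tekt4, a filament protein inside the tubules, stood at 33.6, 161, 12.5 and 91.4 RPKM in NSCs and is listed at 0 in PFMP 1, 2 and 3 and at 0.0437 in PFMP 4. Spag16 of the central apparatus had differences of -4.76, -4.81, -2.22 and -4.54 in batches 1 to 4, close to each other in batches 1, 2 and 4 and smaller in batch 3, and Cfap54 of the same structure had -5.90, -5.08, -2.55 and -5.17. Both fell over 4 batches (log2 difference -4.09, adjusted p = 0.00527, and log2 difference -4.67, adjusted p = 0.00402). Of the 74 axoneme genes of both lists, 59 fell over 4 batches, and 43, 39 and 44 without batch 1, 2 or 4. With no filter 35 fell over 4 batches and 24 over batches 1, 2 and 4, where 65 fell otherwise, and of the 64 with a mean RPKM of at least 5 the counts were 48 and 24.

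RFX factors bind a symmetric element, the X-box, in front of many cilium genes. The letters GTTGCNA of its half-site were therefore looked for on both strands in the 300 bases from 250 before to 50 after the start of each gene, in the RefSeq promoters of GRCm38.p6. They were present in 40 of the 61 axoneme genes that matched a promoter, of 74 tested (65.6%), and in 3209 of all 27025 genes with a promoter (11.9%). Of the 57 matches in the axoneme genes, 48 lay within 50 bases of the start (84.2%), against 1327 of 3747 over all genes (35.4%). The letters were found in 9 of 32 intraflagellar transport and BBSome genes (28.1%) and in 3 of 17 genes of the ependymal list (17.6%). The promoters of 4 axoneme genes that fell in both fits are given here because they hold the letters near the start, with each match in capitals and the strand of the gene, 5′ to 3′.

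Dynlrb2, chr8:116504765-116505064, plus strand: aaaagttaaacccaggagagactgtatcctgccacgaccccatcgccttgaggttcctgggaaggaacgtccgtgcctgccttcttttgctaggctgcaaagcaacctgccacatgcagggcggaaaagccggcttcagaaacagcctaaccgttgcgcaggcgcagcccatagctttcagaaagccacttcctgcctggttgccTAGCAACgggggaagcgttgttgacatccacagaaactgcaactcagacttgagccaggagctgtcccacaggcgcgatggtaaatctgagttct
1700007K13Rik, chr2:28466275-28466574, minus strand: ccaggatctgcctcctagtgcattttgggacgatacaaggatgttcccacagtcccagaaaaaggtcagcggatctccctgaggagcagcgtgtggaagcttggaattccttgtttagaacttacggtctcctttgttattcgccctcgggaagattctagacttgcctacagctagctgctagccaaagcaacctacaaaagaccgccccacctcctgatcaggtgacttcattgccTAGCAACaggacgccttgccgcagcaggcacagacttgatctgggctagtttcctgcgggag
Lrrc23, chr6:124779678-124779977, minus strand: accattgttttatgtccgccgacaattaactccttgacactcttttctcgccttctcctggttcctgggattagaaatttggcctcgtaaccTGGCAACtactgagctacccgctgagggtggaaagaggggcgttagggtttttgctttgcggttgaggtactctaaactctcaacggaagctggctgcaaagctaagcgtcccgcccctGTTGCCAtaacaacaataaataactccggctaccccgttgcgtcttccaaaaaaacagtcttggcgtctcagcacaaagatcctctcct
Enkur, chr2:21205316-21205615, minus strand: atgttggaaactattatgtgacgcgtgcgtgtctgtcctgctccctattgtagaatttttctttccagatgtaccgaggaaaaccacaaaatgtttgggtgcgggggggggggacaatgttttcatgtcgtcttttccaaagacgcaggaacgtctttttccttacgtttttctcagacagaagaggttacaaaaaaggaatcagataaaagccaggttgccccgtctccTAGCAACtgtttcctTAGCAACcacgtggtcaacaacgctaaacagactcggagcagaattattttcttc

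In these promoters the first base of a match lay at -45 from the start in Dynlrb2, at -12 in 1700007K13Rik, at -158 and -39 in Lrrc23 and at -20 and -5 in Enkur. 1700007K13Rik stood at 426, 1487, 69.1 and 418 RPKM in NSC 1 to 4 and at 0.814, 0, 0.236 and 3.89 in PFMP 1 to 4 (log2 difference -7.67, adjusted p = 0.00146). Lrrc23, an axonemal protein, stood at 574, 1189, 169.8 and 392 RPKM in NSCs and 0.230, 3.16, 0.291 and 3.89 in PFMPs (log2 difference -7.60, adjusted p = 0.000594). Enkur, a protein of the inner tubule, stood at 223, 743, 128 and 1044 RPKM in NSCs and 1.37, 0.0603, 1.02 and 10.5 in PFMPs (log2 difference -7.13, adjusted p = 0.000990). None of the 3 overlapped between the groups. Related letters were less common in the axoneme genes, with GTTGCCA, a subset of GTTGCNA, in 16 of 61 (26.2%, against 5.02% of all genes) and GTTNCCA, which shares the GTTGCCA matches, in 28 of 61 (45.9%, against 18.8%). The forkhead letters GTAAACA were in 4 of 61 (6.56%, against 4.05%). The motifs were chosen with the fall of these genes known, and a match describes the sequence and is not a measured site.

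Genes of intraflagellar transport and the BBSome, which serve primary and motile cilia alike, fell in part. Of 36 tested, 14 fell over 4 batches and 16 over batches 1, 2 and 4 (4.15% and 6.01% of all genes tested). The medians were -1.73 and -1.996, beside -3.65 and -4.24 over the 74 axoneme genes. The called members were 12 of 23 transport genes and 2 of 13 BBSome and ciliary membrane genes over 4 batches. Ift43, of the retrograde complex, stood at 857, 937, 76.1 and 337 RPKM in NSC 1 to 4 and at 49.997, 83.6, 6.97 and 47.9 in PFMP 1 to 4. PFMP 2 lay slightly above NSC 3, so the groups overlapped, though every pair differed in the same direction by -2.79 to -4.07 (log2 difference -3.401, adjusted p = 0.00164). Ift81 of the anterograde complex fell with a difference of -3.35 (adjusted p = 0.00221), and Ift20 with -2.68 (adjusted p = 0.0154). Of the 36 genes, 30 to 35 stood at 1 RPKM or more in a PFMP library, beside 4 to 14 of the 35 dynein genes. Without batch 1, 2 or 4, the fit over 4 batches called 4, 5 and 10 of them. The counts of 14 and 16 became 0 and 3 without the batch term, 7 and 6 with median-of-ratios scaling, 5 and 1 with no filter, and 11 and 2 among the 34 genes with a mean RPKM of at least 5.

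The list named ependymal genes outside the axoneme had the lowest median of all lists described here. Its members were not checked for a place in the axoneme, and it includes the cilium-associated Fam183b. Of 20 tested, 16 fell in both fits (4.15% and 6.01% of all genes tested), with medians of -5.70 and -6.13. Tmem212, a membrane protein of ependymal cells (chromosome 3, 27866066 to 27896368, minus strand), stood at 795, 3005, 184 and 1544 RPKM in NSC 1 to 4 and at 0, 0.460, 1.69 and 7.28 in PFMP 1 to 4, a difference of -8.57 (SE 0.728, adjusted p = 0.00114). Ccdc153 (chromosome 9, 44240676 to 44247306, plus strand) stood at 676, 4201, 279 and 357 RPKM in NSCs and at 0.673, 0.0641, 0.519 and 2.36 in PFMPs, a difference of -8.72 (SE 0.763, adjusted p = 0.00123). The groups did not overlap in either gene. Without batch 1, 2 or 4, the fit over 4 batches called 14, 11 and 12 of the 20, and over batches 1, 2 and 4 the count was 9 of the 19 with a mean RPKM of at least 5.

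Fam183b, a cilium-associated protein, stood at 839, 2805, 403 and 1147 RPKM in NSCs and 0.624, 0.535, 0.493 and 8.61 in PFMPs (log2 difference -8.71, adjusted p = 0.000594). 1700012B09Rik stood at 511, 2460.4, 193 and 649 RPKM in NSCs and is listed at 0 in PFMP 1 to 3 and at 6.04 in PFMP 4. Rarres2, the gene of the chemoattractant chemerin, stood at 300.2, 1534, 44.6 and 2365 RPKM in NSCs and 0.409, 0, 0.763 and 34.9 in PFMPs (log2 difference -7.26, adjusted p = 0.00307), and Mia, a small secreted protein, had differences of -6.08, -6.24, -4.90 and -5.93 in batches 1 to 4 (log2 difference -5.79, adjusted p = 0.000594). Mia changed by a like amount in all 4 pairs, whereas Rarres2 spanned a wide range.

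The gene with the largest fall over 4 batches lay outside all these lists. Crygn, which encodes the lens crystallin gamma N (chromosome 5, 24751003 to 24758008, minus strand), stood at 2282, 7889.6, 359 and 6068 RPKM in NSC 1 to 4 and at 0, 14.3, 0 and 46.6 in PFMP 1 to 4. PFMP 1 and 3 are listed at 0, and the difference was -8.91 (SE 0.601, adjusted p = 0.000594). The other genes among the 10 largest falls of either fit, Meig1, 1110017D15Rik, 1700007G11Rik, 1700024G13Rik and Tm4sf1, had differences over 4 batches of -8.12 (adjusted p = 0.00384), -7.77 (adjusted p = 0.00271), -7.76 (adjusted p = 0.000594), -7.61 (adjusted p = 0.000956) and -7.68 (adjusted p = 0.00123). Meig1, known for its part in sperm formation, varied most between batches, with -10.63 in batch 2 and -3.74 in batch 4.

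The summed markers of the endothelium and of the choroid plexus were also lower in the PFMP library of every batch. The 14 endothelial markers summed to 501, 238, 19.7 and 75.2 RPKM in NSC 1 to 4 and to 17.6, 14.9, 12.4 and 21.6 in PFMP 1 to 4, and 14, 12, 7 and 12 of the 14 stood at 1 RPKM or more in the NSC libraries against 3 to 5 in the PFMP libraries. Of 9 tested, Flt1, Esam and Egfl7 fell over batches 1, 2 and 4 and none over 4 batches (6.01% and 4.15% of all genes). The 13 choroid plexus markers summed to 530.4, 842, 79.2 and 229 RPKM in NSCs and 79.6, 151, 24.8 and 112 in PFMPs. Of the 13, 7, 9, 5 and 12 stood at 1 RPKM or more in NSC 1 to 4 and 4, 4, 3 and 4 in PFMP 1 to 4. Ttr, the most abundant gene of that tissue, was under 3 RPKM in all 4 NSC libraries. Folr1 (log2 difference -4.68, adjusted p = 0.0161) and Otx2 (log2 difference -3.05, adjusted p = 0.00547) fell over 4 batches, as did Calml4, which is also on the ependymal list. Enpp2, which oligodendrocyte progenitors also express, went the other way and rose over batches 1, 2 and 4 (log2 difference 2.71, adjusted p = 0.0172). The 15 pericyte markers summed to 24.2, 71.9, 127 and 121 RPKM in NSCs and 33.2, 161, 129 and 53.2 in PFMPs, ranges that overlap, and of 7 tested Cspg4 alone was called, over batches 1, 2 and 4. None of 18 microglia and 12 inflammatory myeloid genes tested was called in either fit, and Krt8 of 6 lung genes fell over batches 1, 2 and 4. The erythroid markers summed to 30.7 RPKM in NSC 4 and 506 in PFMP 4, with a median difference of 3.86 in that batch against -1.33 and 0.09 in batches 1 and 2. The part of these cells in the falls was not tested.

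**Figure D2:**
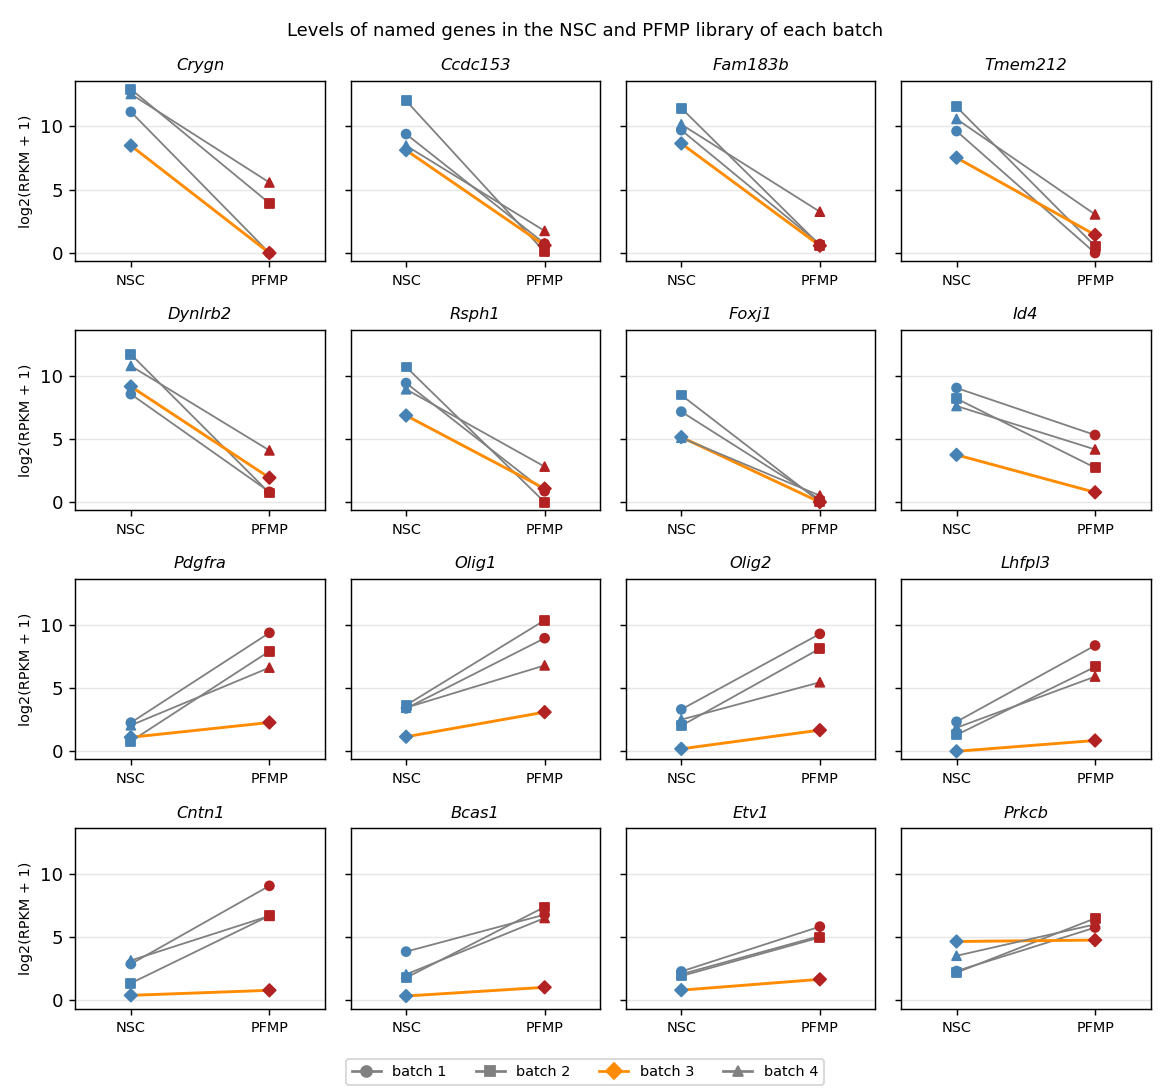
Levels of 16 named genes as log2(RPKM + 1), 1 panel a gene, with a line joining the NSC library (blue) and the PFMP library (red) of each batch and batch 3 in orange. The genes of the upper panels were lower in the PFMP library of all 4 batches, while the genes of the lower panels were higher in it in batches 1, 2 and 4. In batch 3 the differences of the lower panels were smaller, at 1.94 in Olig1, 1.48 in Olig2 and 1.17 in Pdgfra, and Prkcb was level.

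Some astroglial genes fell as well. Of 45 tested, 8 fell over 4 batches and 9 over batches 1, 2 and 4 (4.15% and 6.01% of all genes tested). None rose, and the medians were -0.66 and -0.78. Among the regulators, Id4, an inhibitor of basic helix-loop-helix factors, stood at 520.1, 290.2, 12.4 and 193 RPKM in NSC 1 to 4 and at 38.6, 5.62, 0.713 and 16.96 in PFMP 1 to 4, with the highest PFMP library above NSC 3 alone. Its difference was -3.89 (SE 0.453, adjusted p = 0.00335). Sox9, a factor of radial glia and astrocytes, had differences of -1.46, -1.52, -2.79 and -2.51 in batches 1 to 4 (log2 difference -2.07, adjusted p = 0.0207). Hopx (log2 difference -2.96, adjusted p = 0.0498), Emx1 (log2 difference -2.98, adjusted p = 0.0431) and Gli3 (log2 difference -2.05, adjusted p = 0.0400) also fell. Sox2, which marks neural stem and progenitor cells in general, had -0.56, -0.85, -3.14 and -2.53 and was not called (log2 difference -1.77, adjusted p = 0.0918). Without batch 1, 2 or 4, the fit over 4 batches called 2, 1 and 4 of the 45 genes, and without batch 4 that over batches 1, 2 and 4 had 12 falls and 3 rises. The counts of 8 and 9 became 0 and 3 without the batch term, 3 and 2 with median-of-ratios scaling, 2 and 1 with no filter, and 5 and 1 among the 40 genes with a mean RPKM of at least 5.

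Among the membrane and secreted astroglial genes, Mlc1, a channel-associated protein of astrocyte endfeet, stood at 486, 266, 22.6 and 107 RPKM in NSCs and 21.1, 17.1, 0.381 and 37.8 in PFMPs (log2 difference -3.48, adjusted p = 0.00888). Gja1, the gap junction protein connexin 43 (log2 difference -2.26, adjusted p = 0.0246), and Clu, the chaperone clusterin (log2 difference -2.63, adjusted p = 0.0261), fell too. Slc1a3, the glutamate transporter of radial glia, had differences of -0.61, -1.30, -1.42 and -0.97, which missed the threshold (log2 difference -1.07, adjusted p = 0.111). Fabp7, the brain lipid-binding protein of radial glia, stood at 3508, 4555, 228 and 3469 RPKM in NSCs and 12636, 6737, 239 and 6546 in PFMPs, higher in the PFMP library of every batch, and was not called either (log2 difference 0.85, adjusted p = 0.286).

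Genes of the oligodendrocyte lineage rose in PFMPs, and more of them were called without batch 3. Of 56 tested on the lists of lineage regulators and OPC membrane and secreted genes, 7 rose over 4 batches (0.157% of all genes tested) and 24 over batches 1, 2 and 4 (1.81%), and none fell. The medians were 1.78 and 2.37. Without batch 1, 2 or 4, the count was 1, 0 and 1 in place of 7, and 17, 6 and 41 in place of 24. With no filter the counts were 0 and 1, and among the 45 genes with a mean RPKM of at least 5 they were 5 and 1. Olig1 (chromosome 16, 91269772 to 91271933, plus strand) stood at 9.47, 11.5, 1.22 and 9.88 RPKM in NSC 1 to 4 and at 489.6, 1311, 7.54 and 109.7 in PFMP 1 to 4, higher in the PFMP library of every batch but with PFMP 3 below NSC 1, 2 and 4. The difference was 4.39 (SE 0.723, adjusted p = 0.0142) over 4 batches and 5.20 (SE 0.644, adjusted p = 0.00595) over batches 1, 2 and 4.

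Olig2, its neighbour on the same chromosome (chromosome 16, 91225457 to 91228677, plus strand), stood at 8.92, 3.06, 0.144 and 4.67 RPKM in NSCs and 622, 277, 2.19 and 42.9 in PFMPs. The difference was 4.13 (adjusted p = 0.0246) over 4 batches and 5.01 (adjusted p = 0.00760) without batch 3. Sox10, which drives myelin genes, stood at 0.884, 0.135, 0.00610 and 7.90 RPKM in NSCs and 78.7, 276, 0.545 and 21.00 in PFMPs, and passed over batches 1, 2 and 4 (log2 difference 4.88, adjusted p = 0.0431) but not over 4 (log2 difference 3.82, adjusted p = 0.105). Nkx2-2, a homeobox factor of the lineage, behaved likewise (log2 difference 3.72, adjusted p = 0.0179, and log2 difference 2.72, adjusted p = 0.109). In both, PFMP 4 was the lowest PFMP library outside batch 3.

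Etv1, an ETS factor that responds to ERK signalling, stood at 3.89, 2.81, 0.759 and 3.21 RPKM in NSC 1 to 4 and at 56.1, 30.5, 2.18 and 33.1 in PFMP 1 to 4. It was even across batches 1, 2 and 4, with differences of 3.55, 3.05 and 3.02, and rose in both fits (log2 difference 2.62, adjusted p = 0.0300, and log2 difference 3.204, adjusted p = 0.00897). Hes6, which opposes HES1, rose over batches 1, 2 and 4 (log2 difference 2.37, adjusted p = 0.0295). The 6 regulators that rose over these batches were Olig1, Olig2, Sox10, Nkx2-2, Etv1 and Hes6, of 19 tested.

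Of 37 OPC membrane and secreted genes tested, 4 rose over 4 batches (Lhfpl3, Cntn1, Tmem100 and Brinp3) and 18 over batches 1, 2 and 4. Among all genes tested, 0.157% and 1.81% rose. Lhfpl3, a tetraspan protein of OPCs, stood at 4.05, 1.45, 0 and 2.64 RPKM in NSC 1 to 4 and at 328, 101, 0.808 and 58.95 in PFMP 1 to 4. The difference was 4.08 (SE 0.783, adjusted p = 0.0274) over 4 batches and 5.15 (SE 0.518, adjusted p = 0.00290) over batches 1, 2 and 4. Cntn1, the adhesion protein contactin 1, stood at 6.36, 1.57, 0.323 and 7.95 RPKM in NSCs and 533, 102, 0.744 and 102 in PFMPs (log2 difference 3.86, adjusted p = 0.0447, and log2 difference 5.01, adjusted p = 0.00472). In both genes PFMP 1, 2 and 4 stood well above all NSC libraries, and PFMP 3 was under 1 RPKM.

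Gpr17, a receptor of committed oligodendrocyte precursors, rose over batches 1, 2 and 4 (log2 difference 4.64, adjusted p = 0.00652) and missed the threshold over 4 batches (log2 difference 3.55, adjusted p = 0.0550). Matn4, a matrix protein, stood at 0.281, 0.571, 0 and 3.05 RPKM in NSCs and 55.4, 93.5, 0.193 and 12.4 in PFMPs (log2 difference 4.37, adjusted p = 0.0262 over batches 1, 2 and 4). The AMPA receptor subunits Gria2 (log2 difference 3.41, adjusted p = 0.0129), Gria3 (log2 difference 3.101, adjusted p = 0.0207) and Gria4 (log2 difference 2.12, adjusted p = 0.0483) rose together in that fit. Ptprz1, a receptor phosphatase, and Ncan, the matrix protein neurocan, did not pass the test in either. Ncan stood at 12.03, 14.2, 1.85 and 4181 RPKM in NSCs and 37.8, 53.5, 0.426 and 3331 in PFMPs, so that both libraries of batch 4 were far above all others.

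Some genes of the later stages of the lineage rose too. Of 19 premyelinating and myelin genes tested, out of 26 in the table, 1 rose over 4 batches (0.157% of all genes tested) and 4 over batches 1, 2 and 4 (1.81%), namely Bcas1, Itpr2, Fyn and Gjc3, with medians of 0.64 and 0.92. Bcas1, which marks premyelinating cells, stood at 13.5, 2.47, 0.276 and 3.17 RPKM in NSC 1 to 4 and at 109, 166, 1.05 and 90.5 in PFMP 1 to 4 (log2 difference 3.41, adjusted p = 0.0408, and log2 difference 4.32, adjusted p = 0.00736). The myelin gene Mbp, with differences of -0.19, 2.78, -0.14 and 0.91 in batches 1 to 4, changed sign between batches and was not called.

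The remaining genes among the 10 largest rises of either fit included 2 little-studied protein-coding genes. 3110035E14Rik (chromosome 1, 9601199 to 9627143, plus strand) stood at 3.19, 2.03, 0.859 and 2.17 RPKM in NSCs and 225, 132, 1.20 and 112 in PFMPs, and had the lowest adjusted p of these rises in the fit over batches 1, 2 and 4 (log2 difference 5.45, adjusted p = 0.00185). A930009A15Rik rose in both fits (log2 difference 3.97, adjusted p = 0.0423, and log2 difference 4.998, adjusted p = 0.00941). The mitochondrial tRNA gene mt-Tn and the small nucleolar RNA Snora68 were called over 4 batches, but each is listed at 0 in NSC 1, 3 and 4, and RNAs of both kinds usually lack the polyA tail that the amplification needs.

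Because the PFMP is named for its growth factors, the PDGF and FGF pathways were described by role. Of 62 genes tested beside Pdgfra, out of 71 in the table, Etv1 rose and Fgfr2 fell over 4 batches, and 7 rose and 1 fell over batches 1, 2 and 4. Among all genes tested, 0.157% rose and 4.15% fell over 4 batches, and 1.81% and 6.01% over batches 1, 2 and 4. The medians of the list were 0.29 and 0.39. None of 8 ligands passed. Pdgfa, the ligand of CD140a, stood at 128, 103, 33.5 and 78.5 RPKM in NSC 1 to 4 and at 27.8, 54.9, 19.9 and 13.7 in PFMP 1 to 4, lower in the PFMP library of every batch, and missed the threshold (log2 difference -1.55, adjusted p = 0.0774). Of 6 receptors tested beside Pdgfra, Fgfr2 alone passed, at 31.3, 20.3, 3.25 and 20.4 RPKM in NSCs and 3.201, 1.94, 0.230 and 7.08 in PFMPs (log2 difference -2.25, adjusted p = 0.0289, and log2 difference -2.40, adjusted p = 0.0379).

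Of 32 adaptors and kinases, 5 rose over batches 1, 2 and 4 and none over all 4 (1.81% and 0.157% of all genes tested). Prkcb, protein kinase C beta, stood at 4.01, 3.601, 24.3 and 10.6 RPKM in NSC 1 to 4 and at 53.2, 88.8, 26.3 and 63.6 in PFMP 1 to 4, level between the libraries of batch 3 (log2 difference 3.401, adjusted p = 0.0106 over batches 1, 2 and 4). Pik3r1, the regulatory subunit of PI3 kinase (log2 difference 3.12, adjusted p = 0.0176), Fyn, a Src family kinase (log2 difference 2.45, adjusted p = 0.0249), Prkcq, protein kinase C theta (log2 difference 2.61, adjusted p = 0.0267), and Shc4, an adaptor of receptor kinases (log2 difference 3.03, adjusted p = 0.0450), were the others. Of 16 ERK-induced targets and feedback inhibitors, Etv1 and Spry1, a brake on receptor signalling (log2 difference 2.69, adjusted p = 0.0479), rose over these batches.

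Some Notch and neuroblast genes rose, mostly without batch 3 in the fit. Of 15 Notch and proneural genes tested, Dll3, a ligand that acts inside the cell (log2 difference 4.66, adjusted p = 0.0264), and Hes6 rose over batches 1, 2 and 4 (1.81% of all genes tested) and none was called over 4. The Notch target Hes5 had differences of 1.66, 1.33, 0.37 and -0.07 in batches 1 to 4. Of 28 neuroblast and interneuron genes, Etv1 and Gng3, a G protein subunit of neurons (log2 difference 3.01, adjusted p = 0.0379), rose over 4 batches, joined without batch 3 by Sox11, Dcx, Tubb3 and Syngr3, which makes 2 and 6 beside 0.157% and 1.81% of all genes tested. The medians of this list were 0.94 and 1.30.

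None of 21 DNA replication genes and 21 mitosis genes was called over 4 batches, with medians of 0.64 and 0.26. Mcm5, a subunit of the replicative helicase, rose over batches 1, 2 and 4 (log2 difference 2.56, adjusted p = 0.0281), and Mki67, a proliferation marker, stood at 0.436, 0.640, 2.66 and 1.44 RPKM in NSCs and 2.75, 14.1, 3.29 and 6.21 in PFMPs without a call (log2 difference 2.05, adjusted p = 0.0748). Cdkn1a, which encodes the cell cycle inhibitor p21, stood at 164, 207, 204 and 175 RPKM in NSC 1 to 4 and at 2.45, 7.55, 186 and 18.7 in PFMP 1 to 4. It was even across the NSC libraries and fell over batches 1, 2 and 4 by a log2 difference of -4.45 (SE 0.541, adjusted p = 0.00560), but PFMP 3 stood at the NSC level, and the fall over 4 batches missed the threshold (log2 difference -3.37, adjusted p = 0.0550). It was the only one of 10 G1 cyclins and inhibitors called in either fit. Ccnd1, cyclin D1, had differences of 1.92, 5.58, 0.199 and 1.67 and was not called.

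A list of 39 genes that the study named for PFMPs was chosen on these samples and is not independent evidence of its direction. Of 29 tested, 4 rose and 12 fell over 4 batches, and 8 rose and 12 fell over batches 1, 2 and 4.

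**Figure D3:**
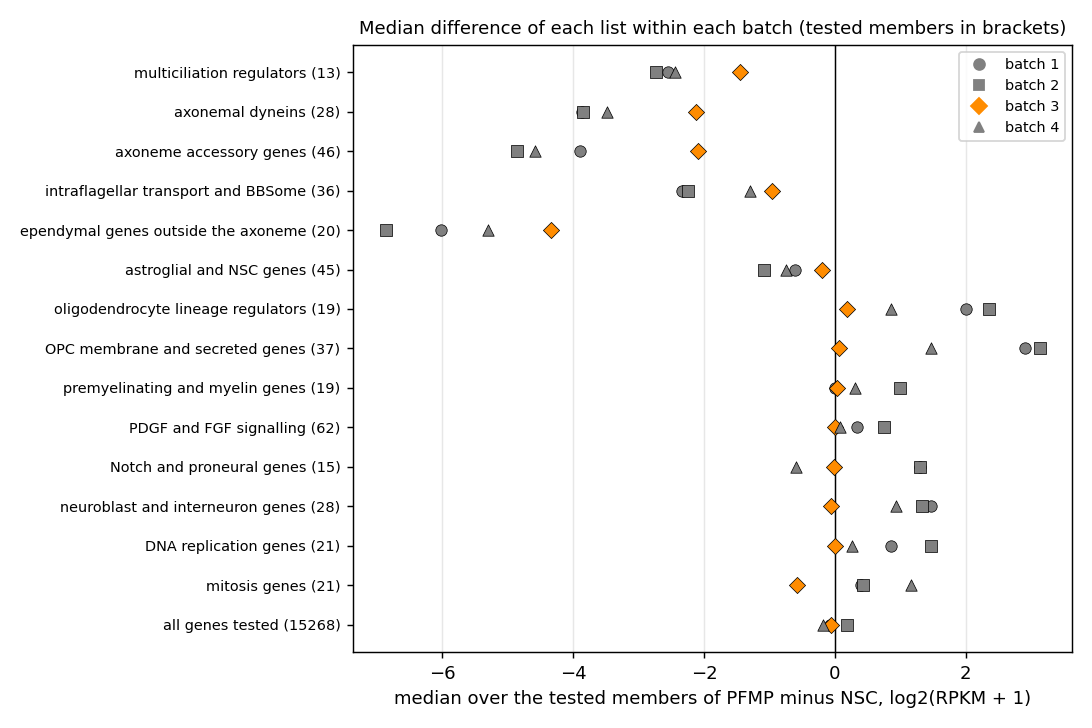
Median PFMP minus NSC difference of each list within each batch, in log2(RPKM + 1), with batch 3 as orange diamonds and the number of tested members in brackets. The cilium and ependymal lists lie left of 0 in all 4 batches, whereas the oligodendrocyte lineage and OPC lists lie right of 0 in batches 1, 2 and 4 and at 0.19 and 0.07 in batch 3.

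Batch 3 is given apart because its libraries stood out. Its NSC and PFMP libraries were the most alike of the 4 pairs, with a correlation of 0.929 across the genes tested against 0.678 to 0.758 in the others. Genes are not independent replicates, and both libraries share the erythroid and macrophage RNA given above. Within batch 3, with 1 library a group and so no test, 236 genes (1.55%) were higher in PFMP 3 by a log2 difference above 1 and 1490 (9.76%) lower by one below -1. In batches 1, 2 and 4 the counts were 2476, 4064 and 2828 higher and 3421, 3415 and 4271 lower.

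The cilium genes were lower in PFMPs in batch 3 as well. Of 74 axoneme genes tested, 73 had a difference below 0 in batch 3 and 66 one below -1 (9.76% of all genes tested), with a median of -2.09 against -3.86, -4.49 and -4.22 in batches 1, 2 and 4. Genes under 1 RPKM in every PFMP library passed the filter only if NSC 3 reached 1 RPKM, so these had to be below 0. Among those left out for an NSC 3 level under 1 RPKM were Dnah1, Dnah5, Dnah11 and Hydin. Their differences in batch 3 were -0.75, -0.48, -0.105 and -0.60. Of the 20 genes of the ependymal list, all were below 0 and 19 below -1, with a median of -4.34 against -6.01, -6.86 and -5.30. Of 13 multiciliation regulators, 9 were below -1 (median -1.45). Summed over the 83 axoneme genes in the table, NSC 3 held 1870.4 RPKM and PFMP 3 89.04, while the other NSC libraries held 7767 to 16838 and the other PFMP libraries 201 to 354.

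The oligodendrocyte lineage genes did not separate the pair. Of the 56 tested, 32 were above 0 and 23 below it, 3 above 1 and 3 below -1, with a median of 0.08 against 2.58, 2.99 and 1.35 in batches 1, 2 and 4. The 3 above 1 were Olig1 (1.94), Olig2 (1.48) and Emid1 (1.04), and the 3 below -1 were Nkx6-2, Cacng4 and Kcnj16, each singled out after its value was seen. Pdgfra had 1.17. Most of the lineage genes were close to the floor in both libraries, where the 60 genes of the lists summed to 189 RPKM in PFMP 3 and 203 in NSC 3. The other PFMP libraries held 6309 to 7332, and NSC 1, 2 and 4 held 889, 556 and 5768. Ncan made up most of the sum in both libraries of batch 4.

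Levels in batch 3 were set against the median of batches 1, 2 and 4 of the same population, for genes where that median was at least 5 RPKM. Over all such genes the median level was 58.1% in PFMP 3 and 61.3% in NSC 3. The oligodendrocyte lineage genes of PFMP 3 stood at 1.09% (51 genes), whereas the axoneme genes of NSC 3 stood at 14.3% (72 genes) and the ependymal genes at 11.3% (20 genes). These lists were thus further below their usual level than the genes as a whole, but they were not alone. The astroglial genes stood at 4.25% in PFMP 3 (31 genes) and 9.39% in NSC 3 (41 genes). For the neuroblast and interneuron genes the values were 4.71% (22 genes) and 23.8% (11 genes). The adaptors and kinases of PDGF and FGF signalling, by contrast, stood at 69.5% (26 genes) and 109% (20 genes). The part of the erythroid, myeloid and lung RNA in these values was not tested.

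Batch 3 entered no part of the fit over batches 1, 2 and 4, but its libraries took part in the filter on low values. Genes under 1 RPKM in every PFMP library were tested only if NSC 3 reached 1 RPKM, which fixed their sign in batch 3. Part of the agreement of the lower genes therefore follows from the filter, and the size of that part was not tested. The same filter served when another batch was left out. Of the 917 genes lower in that fit, 801 (87.4%) had a difference below 0 in batch 3, against 58.2% of all genes tested, and 558 (60.9%) one below -1, against 9.76%. Of the 276 higher genes, 143 (51.8%) were above 0, against 39.5% of all genes, and 10 (3.62%) above 1, against 1.55%. The median difference in batch 3 was -1.32 for the lower genes and 0.01 for the higher ones. When each of the other batches was left out instead, 278 of 284 (batch 1), 251 of 252 (batch 2) and 365 of 390 (batch 4) genes lower in the remaining 3 were below 0 in the one left out, beside 6 of 7, 3 of 3 and 3 of 5 higher genes that were above 0.

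A direct test of the batch 3 difference against the mean of the other 3 called no gene (0.0% of 15268) at an adjusted p under 0.05 in limma, with 317 genes larger and 311 smaller in batch 3 at an unadjusted p under 0.05. That test takes the single pair of batch 3 to vary like the others, and it can miss even large differences, so its count of 0 does not show that the batches were alike. The 6 genes with the largest differences within batch 3 at a mean of at least 10 RPKM were mostly small RNAs found in 1 library of the pair. Rn7s1 and Rnu2-10 stood at 590.0 and 415 RPKM in NSC 3 and are listed at 0 in PFMP 3. Rnu1a1, Mir8094 and n-R5s215 stood at 428, 268 and 208 in PFMP 3 and are listed at 0 in NSC 3. Crygn, 359 RPKM in NSC 3 and listed at 0 in PFMP 3, was the exception.

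**Figure D4:**
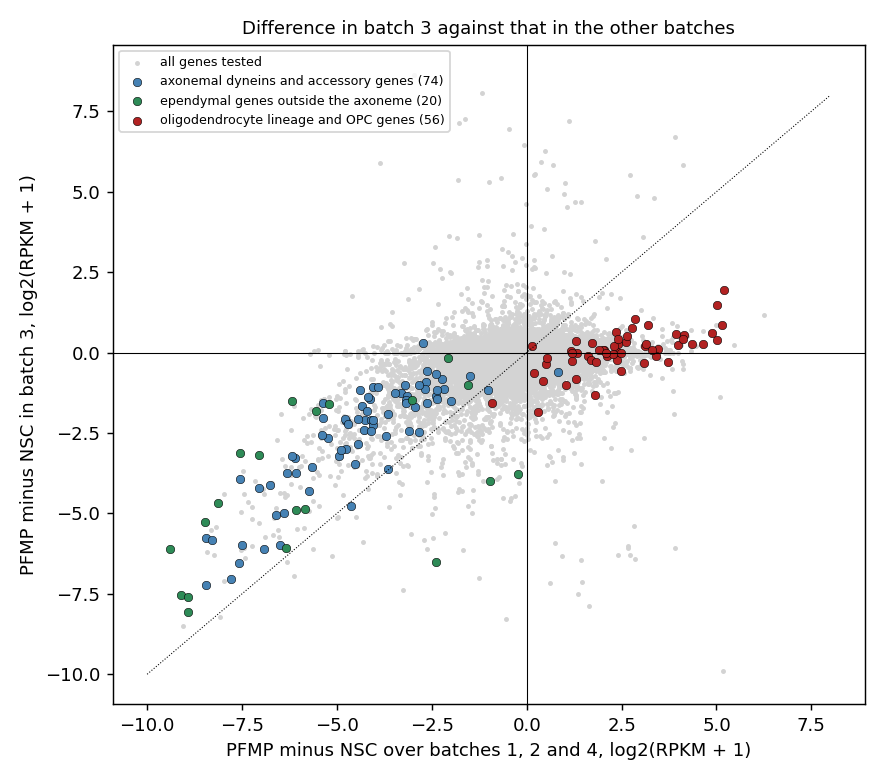
PFMP minus NSC difference in batch 3 (vertical) against that fitted over batches 1, 2 and 4 (horizontal), both in log2(RPKM + 1), for the 15268 genes tested (grey), with a dotted line of equality. Axoneme genes (blue) and ependymal genes (green) lie mostly below 0 on both axes, and oligodendrocyte lineage and OPC genes (red) lie mostly right of 0 but spread about 0 in batch 3.

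Beside Prom1, some values of batch 4 lay apart from those of batches 1 and 2. The OPC list had a median of 1.46 in batch 4 against 2.91 and 3.13, and the lineage regulators 0.86 against 2.004 and 2.35. NSC 4 held 36 of 40 OPC genes at 1 RPKM or more, against 23 in NSC 1 and 24 in NSC 2, in the library with the most genes above 0. The ependymal list had its difference nearest to 0 outside batch 3 there (-5.30), and in PFMP 4 14 of the 20 members stood at 1 RPKM or more, against 9 and 8 in PFMP 1 and 2. Whether batch 4 differs from the others was not tested.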

How the data were processed

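RNA from cells sorted out of the neonatal SVZ was sequenced by the authors in 20 libraries, and the 4 PFMP and 4 NSC libraries were analysed here, paired by batch number. The deposited values are RPKM, in which the authors divided reads by gene length and by the size of the library. Per the submitters' processing notes and the study's methods, the tools were FastQC 0.11.9 for read quality, cutadapt 3.4 for trimming, STAR 2.6.1 for alignment to GRCm38, Salmon 1.9.0 for quantification and DESeq2 1.26.0 for the study's own comparisons. The annotation release, gene lengths and read totals are not given in the sources used here. How strand, overlapping genes and close copies were counted is not given either, so reads of such genes may be mixed. The table has 26 further empty columns, which were not used. Low values of a library stood at one ratio to those of NSC 1 in only 3.05% to 15.3% of genes, so whole reads and depth could not be recovered and no counting interval is given.

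Values were taken as log2(RPKM + 1) without further scaling, keeping genes that reached 1 RPKM in 4 or more of the 8. Differences were fitted in R 4.3.3 with limma 3.58.1 (eBayes with a trended prior), with population and batch as terms, over batches 1 to 4, over batches 1, 2 and 4, and as a contrast of batch 3 with the others. An adjusted p is Benjamini-Hochberg adjusted over all 15268 genes, and the threshold was 0.05. The steps were tested on simulated data, in which the contrast of batch 3 with the others called none of the shifted genes and the fit over batches 1, 2 and 4 none of those with the smallest shift. A gene without a call is therefore not shown to be unchanged. The batch numbers pair the samples, as the labels give the batch. Deviations from the population means correlated at 0.691, 0.439, 0.778 and 0.547 in batches 1 to 4. The median between batches was -0.245, but deviations from the mean of 4 libraries sum to 0, which pushes that value below 0. It is therefore no evidence for the pairing.

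The comparison, the gene lists and the motifs were chosen with earlier results of these data known. Genes named are the sorting antigens, the 10 largest rises and falls of each fit with the same sign in every batch (names made of Gm and digits left out), list members that were called or have a defining role, and the 3 largest differences in each direction within batch 3. Some genes that the rule names are not reported here. Gene positions are from GENCODE M21 (GRCm38) and promoters from RefSeq (GRCm38.p6). Promoters matched fewer than 80% of the dyneins alone, the multiciliation regulators and the oligodendrocyte lineage lists, so the motif check is void for those and none is given; CAGCTG was also looked for. The settings varied were the pseudocount (0.1), the filter (none, or a mean RPKM of at least 5), the scaling (quantile normalization or median of ratios), the prior (no trend), the batch term (none), the samples in the model (all 5 populations) and the batches (each left out in turn).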

Additional observations from a re-analysis of the deposited data

Results flagged for a closer look

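Of 147 sets of 4 values compared with Dixon's critical value for 4 values, 10 had 1 value far from the other 3, where chance gives about 1 in 20. The summed RPKM were compared as log2(sum + 1). On that scale the microglia sum of PFMP 3 (4639 RPKM against 33.8 to 178) was not flagged. For summed RPKM of lists, PFMP 3 stood at 114 for the OPC membrane and secreted genes, at 53.0 for the mitosis genes and at 251721 for the erythroid markers, far from the other PFMP libraries. NSC 3 stood at 44296 for the inflammatory myeloid markers and NSC 2 at 272 for the DNA replication genes, far from the other NSC libraries. Among the differences by batch, Prom1 in batch 4 (0.86), Spag16 in batch 3 (-2.22), Enkur in batch 2 (-9.46), 3110035E14Rik in batch 3 (0.24) and Gad1 in batch 3 (-0.53) stood apart from those of the other batches.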

How the results depend on the processing

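Counts moved by over 1.5 times under several settings. For higher and lower genes over batches 1 to 4 (24 and 633), no filter gave 3 and 235, a mean RPKM of at least 5 gave 13 and 419, all 5 populations in the model gave 119 higher, quantile normalization gave 417 lower, and leaving out 1 batch gave 3 to 276 higher and 252 to 917 lower. Over batches 1, 2 and 4 (276 and 917), no filter gave 15 and 158, a mean RPKM of at least 5 gave 19 and 162, median-of-ratios scaling gave 549 lower, and leaving out 1 batch gave 28 to 879 higher and 310 to 1639 lower. The contrast of batch 3 with the others, 0 genes, gave 0 to 5 larger and 0 to 11 smaller with 1 of the other batches left out. No filter tested 40065 genes, and the cause of the other moves was not tested. The numbers pair the samples, and without the replicate block the counts were 1 and 221 over batches 1 to 4 and 55 and 424 over batches 1, 2 and 4. Without it 0 oligodendrocyte lineage genes rose and 38 axoneme genes fell over 4 batches (7 and 59 with it), and 13 and 56 over batches 1, 2 and 4 (24 and 65).

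Quantile normalization moved the median of all genes to 0.16 over 4 batches and 0.17 over batches 1, 2 and 4. Of 202 differences of named genes, 198 kept their direction and side of the threshold with a prior without a trend, 190 with a pseudocount of 0.1, 190 with quantile normalization, 178 with median-of-ratios scaling, 143 without the block and 118 with no filter, and none changed sign under any setting. Of 14 named rises over 4 batches, 3, 2 and 2 stayed called without batch 1, 2 or 4, and of 48 named falls 33, 33 and 39. Of 36 named rises over batches 1, 2 and 4, 4 stayed called with no filter and 4 with a mean RPKM of at least 5, and of 50 named falls 25 and 22. The list medians that moved, all over batches 1, 2 and 4, were those of the dyneins (-3.93 with quantile normalization, -4.21 to -3.77 with 1 batch left out), the multiciliation regulators (-2.53 with quantile normalization, -3.03 to -2.67 with 1 batch left out), the G1 genes (0.53 with median-of-ratios scaling, 0.56 with quantile normalization, 0.47 to 0.73 with 1 batch left out) and the pericyte markers (-1.22 to -0.22 with 1 batch left out). The depth is unknown, so how low a level could have been detected is unknown too.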

Other observations

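Vim, the intermediate filament protein of radial glia that macrophages also make, stood at 245, 580.0, 911 and 313 RPKM in NSC 1 to 4 and at 35.3, 45.3, 935 and 33.1 in PFMP 1 to 4. It fell over batches 1, 2 and 4 (log2 difference -3.205, adjusted p = 0.00560) and was level between the libraries of batch 3 (0.04), where the inflammatory myeloid genes summed to more than in any other pair. Cdkn1a, given above, was likewise higher in PFMP 3 than in the other PFMP libraries. The part of myeloid RNA in either pattern was not tested.

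Young neuron genes were present in both gates. Dcx, a microtubule protein of migrating neuroblasts, stood at 2.74, 1.34, 0.802 and 1.96 RPKM in NSC 1 to 4 and at 39.1, 26.4, 0.677 and 20.00 in PFMP 1 to 4 and rose over batches 1, 2 and 4 (log2 difference 3.27, adjusted p = 0.0102). Tubb3, a neuronal tubulin, stood at 4.44, 7.12, 3.13 and 10.7 RPKM in NSCs and 16.98, 37.2, 3.01 and 93.3 in PFMPs (log2 difference 2.32, adjusted p = 0.0299). Sox11, a factor of immature neurons, stood at 27.05, 10.02, 2.32 and 43.1 RPKM in NSCs and 151, 64.9, 2.34 and 144 in PFMPs (log2 difference 2.24, adjusted p = 0.0218). The interneuron genes Dlx1 (log2 difference 1.605, adjusted p = 0.167) and Gad1 (log2 difference 1.999, adjusted p = 0.0515) did not pass in that fit.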
